A study of Mus musculus with 20 samples.

Results

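Follicular regulatory T (TFR) cells were set against both GL7+ T follicular helper (GL7+ TFH) cells and non-follicular regulatory T (Treg) cells, to describe the transcripts in which TFR cells stood apart from either population. The comparison used 15 of the 20 single-colour oligonucleotide arrays of the series, namely 1 TFR, 1 GL7+ TFH and 1 Treg array on each of 5 slides. A probe was placed on the list "above" when its TFR value exceeded the higher of the GL7+ TFH and Treg values on all 5 slides, and on the list "below" when it lay under the lower of them on all 5. The smallest gap is the smallest of these 5 distances on the log2 scale. Of 22264 tested probes, 1187 were above and 1149 were below on every slide. All cells came from mice of the strain B6.Cg-Foxp3 tm1Mal, in which cells that express Foxp3 carry EGFP, and were B220- CD4+ T cells. GL7+ TFH cells were GFP- PD1hi GL7+, Treg cells were GFP+ PD1- GL7- and TFR cells were GFP+ PD1hi whatever their GL7 level. Slides 1 and 2 held the fractions of peripheral lymph nodes (pLN) 12 days after subcutaneous immunisation with keyhole limpet hemocyanin in alum (pLN d12, replicates 1 and 2), slide 3 those of pLN on day 25 (pLN d25), and slides 4 and 5 those of Peyer's patches (PP, replicates 1 and 2), for which the labels name no immunisation. Values are listed below in this order of slides. Per the labels mice were 8 to 14 weeks old and each sample was a pool of 8 to 15 mice of mixed sex, while the study's methods also name other ages and pool sizes. Here a p-value measures the spread between these pools, 1 array each. TFR samples mixed GL7+ and GL7- cells in shares that are not known.

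TFR cells are Foxp3+ T cells that enter B-cell follicles and restrain the germinal-centre reaction, whereas TFH cells give help to B cells there through IL-21, IL-4 and CD40 ligand. Both follicular populations use the transcription factor Bcl6 and the receptor Cxcr5 to reach the follicle, and TFR cells share Foxp3 and other regulatory genes with Treg cells, from which they mostly arise. A TFR transcript can therefore lie between the levels of its relatives, match one of them, or stand outside both.

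Intensities were quantile normalised and scaled to a 75th percentile of 1500, with a floor of 20. Between 43.0% and 58.0% of the probes were detected per array, and no probe was saturated. The median local background was 24 to 78 on all arrays apart from the TFR array of pLN d12 replicate 2, where it was 268. The TFR array was in position 4 and the Treg array in position 3 of every slide, so array position and cell type cannot be told apart. Slides 1 and 4 carried 50 ng of input RNA per array, the others 40 ng. On slide 4 markers of B cells and epithelium were high in all fractions, as given beside the genes they concern.

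The labels were checked on markers of both identities. Foxp3, the regulatory lineage factor and a sort gene, read 29926, 22047, 27484, 19243 and 13409 in TFR cells, 35129, 29850, 25435, 26173 and 14718 in Treg cells, and 95, 57, 27, 41 and 39 in GL7+ TFH cells. Pdcd1, which encodes PD1 and is also a sort gene, read 27456, 38287, 51386, 166512 and 155321 in TFR cells against 3015 to 6517 in Treg cells. The third sort gene, Cd4, was detected on all 15 arrays. Bcl6, the follicular master regulator, was 2.21 ± 0.37 (SE, log2 scale, n = 5 slides) higher in TFR than in Treg cells (limma adjusted p = 0.0007973) and -1.47 ± 0.37 relative to GL7+ TFH cells (limma adjusted p = 0.01823). Cxcr5, the receptor for CXCL13, was likewise between its comparators, with differences of 2.29 ± 0.31 to Treg and -2.16 ± 0.31 to GL7+ TFH cells. Lrrc32, which anchors latent TGF-beta on Treg cells, differed by 6.98 ± 0.27 from GL7+ TFH and by -0.59 ± 0.27 from Treg cells, and the latter did not pass the test (adjusted p = 0.09671). On all 5 slides TFR cells thus read above Treg cells for Bcl6, Cxcr5 and Pdcd1, and above GL7+ TFH cells for Foxp3 and Lrrc32. The same held for the follicular markers Icos and Ascl2 and the regulatory markers Il2ra and Ikzf2. It did not hold for Ctla4, a regulatory marker, which on slide 1 read 11537 in TFR, 13787 in GL7+ TFH and 13800 in Treg cells. Il2ra and Ascl2 differed between the tissues, as given below. All 8 pan-T-cell markers were detected on all 15 arrays.

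In the fit over all tested probes, with the slide as a block, 1409 probes (6.33%) differed between TFR and GL7+ TFH cells, 838 (3.76%) of them higher in TFR cells and 571 (2.56%) lower, at an adjusted p under 0.05 and a log2 difference of at least 1. Against Treg cells 2696 probes (12.1%) were called, of which 1805 (8.11%) were higher and 891 (4.0%) lower. Higher against both were 385 probes (1.73%) and lower against both were 64 (0.287%). A further 114 probes were lower than in GL7+ TFH and higher than in Treg cells, 107 were the reverse, and 2765 were called against 1 comparator alone. The median differences of all tested probes were -0.02 to GL7+ TFH and -0.07 to Treg cells. RNA of a sorted fraction is an average, so fewer cells that carry a transcript and less of it per cell cannot be told apart.

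**Figure D1:**
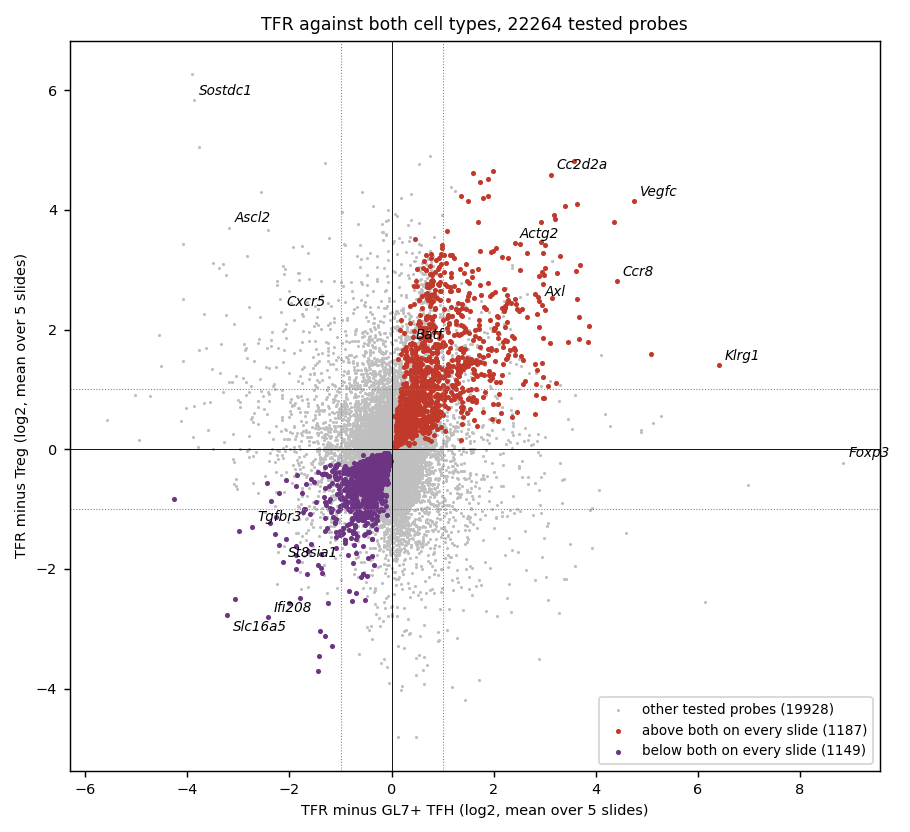
Each point is 1 of the 22264 tested probes, with the mean difference of TFR from GL7+ TFH cells on the horizontal axis and from Treg cells on the vertical axis (log2, 5 slides); dotted lines mark a difference of 1. The 1187 probes above both on every slide fill the upper right, the 1149 below both the lower left, and Sostdc1, Ascl2 and Cxcr5 lie between their comparators at the upper left.

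The list above held 6.74% of the 17601 probes whose TFR signal was detected on all 5 slides, and the list below 7.18% of the 16011 probes detected on all 5 in both comparators. These lists were chosen by the same values that enter the fit, so the fit is printed beside their genes as a description of size and error and lends them no independent support. The list above stood for 967 named genes, with 76 probes that have no symbol, and the list below for 873 genes, with 164 such probes. The lists passed different detection filters, and 853 probes above and 1114 below were detected on all 15 arrays, so their gaps are not on an equal footing. The median smallest gap was 0.17 and 0.09, respectively, 240 against 57 probes had a smallest gap of at least 0.5, and 73 against 10 reached 1. Of the list above 280 probes were called against both cell types, and of the list below 47 were.

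GL7+ TFH cells were the nearer comparator for most probes above, on 60.7% to 69.1% of them per slide. For the list below this share was 70.8%, 75.3% and 68.9% on the pLN slides and 44.6% and 56.7% on the PP slides. The fourth array of each slide took no part in the rule. It held naive T cells on the pLN slides and GL7- TFH cells on the PP slides. TFR cells were also above this array on every slide for 1015 of the probes above (85.5%), and below it for 996 of the probes below (86.7%). The same TFR values chose these probes, and the share over all eligible probes was not counted, so this lends the lists no independent support. Over all 15 arrays, the lowest TFR value exceeded the highest value of either comparator for 213 of the 17601 probes eligible above. The highest TFR value lay under the lowest of either for 91 of the 16011 probes eligible below. Of the 329 genes above with several tested probes, 111 had all of them on the list, as had 76 of 385 genes below, and no gene had probes on both lists.

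**Figure D2:**
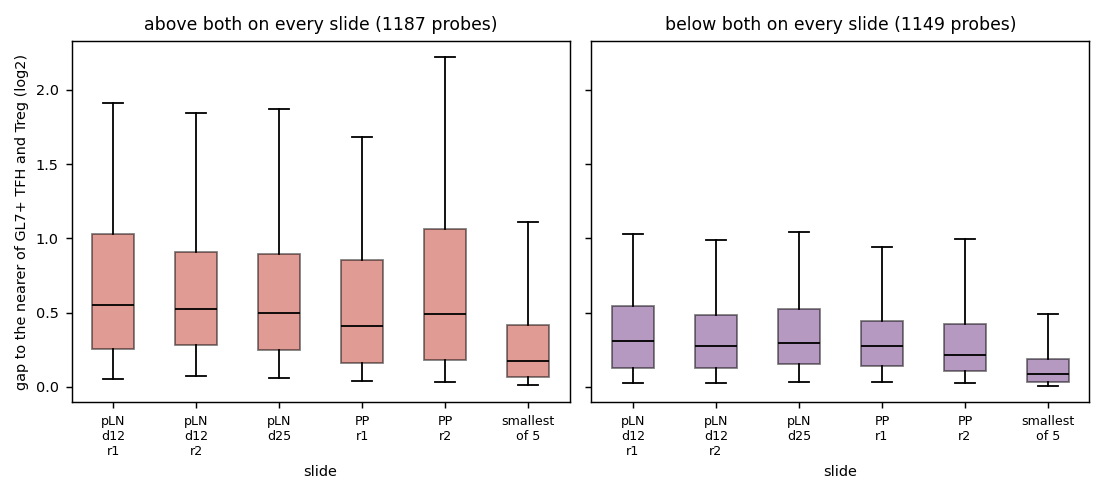
Distance (log2) of TFR cells to the nearer of GL7+ TFH and Treg cells on each slide for the probes above (left) and below (right), and the smallest of the 5. Boxes give quartiles, lines medians and whiskers the 5th and 95th percentiles over probes; the medians per slide lie between 0.409 and 0.548 above and between 0.217 and 0.306 below.

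At the edge of the rule the gaps were close to 0. The probes just inside the list above were H3c11 (a histone H3 gene), Coasy (coenzyme A synthase) and Shcbp1, with smallest gaps of 0.000393, 0.000554 and 0.000573. Just outside were Ppia (cyclophilin A), Rps12 (a ribosomal protein) and Ptpmt1 (a mitochondrial phosphatase), which tied with a comparator on 1 slide. For the list below, Kdm5b (a histone demethylase), Pja2 (a ubiquitin ligase) and Mocs2 (molybdopterin synthesis) were just inside, at 0.000393, 0.000449 and 0.000562, and Stat5b, an unnamed probe and Gstp1 just outside.

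Vegfc, a growth factor of lymphatic vessels (probe at chr8:55271533-55271592, mm9), read 1180, 983, 878, 203 and 269 in TFR cells. It was at 20 to 25 and not well above background on any GL7+ TFH array, and at 76, 31, 27, 20 and 26 in Treg cells, where only the first value was above background. With a smallest gap of 2.31 it led the list, and TFR cells were at least 13.6-fold higher than GL7+ TFH cells. Such a bound sets the mean TFR value against the lowest intensity detected on each comparator array.

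Ccr8, the receptor for CCL1 found on activated regulatory T cells, followed among the receptors with a smallest gap of 2.0. Its probe read 1224, 771, 1050, 3649 and 2629 in TFR cells, 69, 36, 84, 105 and 97 in GL7+ TFH and 306, 95, 131, 423 and 351 in Treg cells. The difference was 4.42 ± 0.22 to GL7+ TFH and 2.81 ± 0.22 to Treg cells (limma adjusted p = 2.01e-06 and 1.219e-05), and both tested Ccr8 probes were on the list. Axl, a receptor tyrosine kinase that binds Gas6 on apoptotic membranes, read 5457, 6080, 9439, 10941 and 11146 in TFR cells. It stayed between 909 and 1340 in GL7+ TFH cells and between 996 and 2265 in Treg cells, so the TFR arrays did not overlap with the others. Lsr, a lipoprotein receptor that is also part of epithelial junctions, read 2742, 2829, 2485, 4558 and 5717 against 503 to 845 and 452 to 1131. Smallest gaps of Axl and Lsr were 1.62 each.

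Penk, the precursor of the opioid peptides called enkephalins, read 52318, 52318, 81836, 33683 and 59420 in TFR cells. Its level was 5981, 6554, 15332, 8069 and 9356 in GL7+ TFH cells and 6099, 3435, 3644, 8987 and 7585 in Treg cells. The smallest gap was 1.91, and the differences of 2.65 ± 0.33 and 3.28 ± 0.33 correspond to 6.29-fold and 9.71-fold. Nrn1, which encodes the secreted and membrane-bound protein neuritin, read 30367, 30340, 41178, 5690 and 7500 in TFR cells. In GL7+ TFH cells it read 5690, 9574, 10019, 270 and 363, and in Treg cells 4539, 2682, 3950, 1286 and 1105. All 3 fractions thus held less Nrn1 in PP than in pLN, and TFR cells kept the highest level on each slide with a smallest gap of 1.66. Both genes, with Actg2 (a smooth-muscle actin), belong to a list of 7 candidates that the study chose on these samples and that is therefore no independent evidence. Of these 7, Actg2, Nrn1 and Penk were called higher against both, while Smtn, Popdc2 and Sostdc1 were lower than in GL7+ TFH cells. Actg2 read 16024, 14160, 9186, 7568 and 8928 in TFR cells, 1026 to 4216 in GL7+ TFH and 522 to 2458 in Treg cells.

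**Figure D3:**
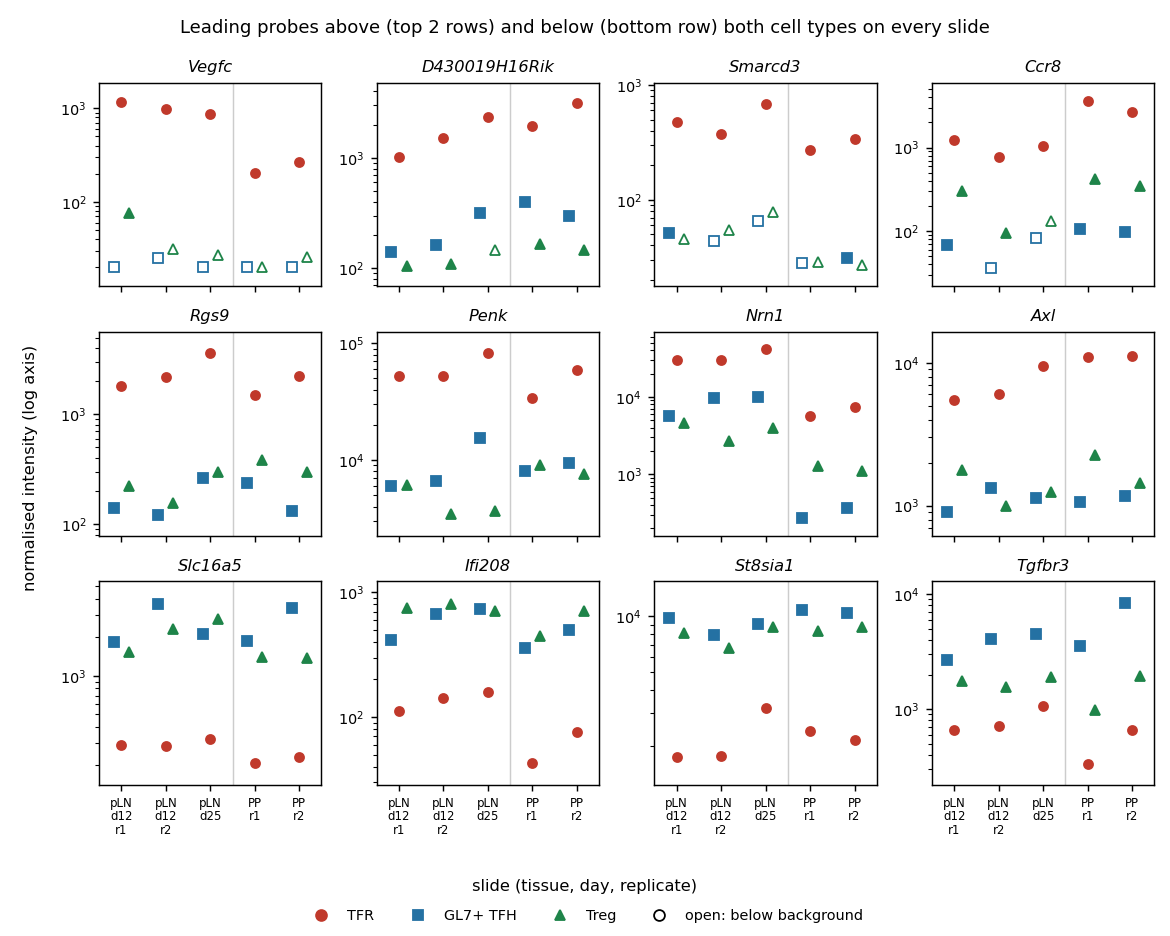
Normalised intensity (log axis) of 8 genes above and 4 genes below both comparators on each of the 5 slides; circles are TFR, squares GL7+ TFH and triangles Treg cells, and open symbols were not well above background. The TFR circle is the highest of the 3 on every slide in the upper rows, with Vegfc between 203 and 1180, and the lowest on every slide in the bottom row, with Slc16a5 between 211 and 321.

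Promoters of RefSeq (GRCm38.p6, 250 bases before to 50 after the annotated start) are shown for Vegfc and Ccr8, as the secreted factor and the receptor with the widest gaps, for Axl and Lsr, as receptors above with a motif match, and for Ifi208, as a leading gene below with one. Capitals mark matches on either strand to the forkhead letters TGTTTAC (Axl, Ifi208) or the AP-1 letters TGANTCA (Lsr). The windows are Vegfc chr8:54077282-54077581 (plus strand), Ccr8 chr9:120091883-120092182 (plus), Axl chr7:25788684-25788983 (minus), Lsr chr7:30973420-30973719 (minus) and Ifi208 chr1:173673415-173673714 (plus).
Vegfc: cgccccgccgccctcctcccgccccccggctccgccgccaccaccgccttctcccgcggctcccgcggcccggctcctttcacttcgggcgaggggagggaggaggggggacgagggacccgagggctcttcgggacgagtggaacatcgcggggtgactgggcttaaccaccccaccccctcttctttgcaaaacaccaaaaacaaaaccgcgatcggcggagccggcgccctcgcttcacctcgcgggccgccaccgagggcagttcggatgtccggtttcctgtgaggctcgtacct
Ccr8: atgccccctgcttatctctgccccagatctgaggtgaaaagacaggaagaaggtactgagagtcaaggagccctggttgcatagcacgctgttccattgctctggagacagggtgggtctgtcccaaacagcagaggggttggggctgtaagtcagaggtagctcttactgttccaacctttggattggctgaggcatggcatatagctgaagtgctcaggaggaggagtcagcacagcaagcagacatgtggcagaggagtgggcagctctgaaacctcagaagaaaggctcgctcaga
Axl: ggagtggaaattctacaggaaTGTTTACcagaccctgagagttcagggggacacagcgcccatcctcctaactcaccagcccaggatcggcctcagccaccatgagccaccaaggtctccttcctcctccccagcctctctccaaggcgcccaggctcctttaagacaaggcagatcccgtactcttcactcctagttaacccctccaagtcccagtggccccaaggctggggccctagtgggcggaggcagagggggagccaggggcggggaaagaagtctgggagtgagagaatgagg
Lsr: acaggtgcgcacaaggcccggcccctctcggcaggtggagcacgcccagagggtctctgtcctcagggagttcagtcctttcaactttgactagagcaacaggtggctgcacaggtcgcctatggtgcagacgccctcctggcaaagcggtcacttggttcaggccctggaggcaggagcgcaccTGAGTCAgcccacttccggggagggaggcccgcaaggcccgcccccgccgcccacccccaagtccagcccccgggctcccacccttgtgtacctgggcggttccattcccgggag
Ifi208: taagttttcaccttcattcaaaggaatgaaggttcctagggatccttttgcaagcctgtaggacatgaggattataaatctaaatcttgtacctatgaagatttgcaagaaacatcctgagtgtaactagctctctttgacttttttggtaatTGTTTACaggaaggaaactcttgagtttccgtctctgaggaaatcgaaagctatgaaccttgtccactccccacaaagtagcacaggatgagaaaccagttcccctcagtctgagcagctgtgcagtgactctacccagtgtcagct
The forkhead match began 229 bases before the start in Axl and 97 bases before it in Ifi208, and the AP-1 match of Lsr 65 bases before it.

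Promoters were found for 771 genes above (992 promoters) and 680 genes below (877 promoters). AP-1 letters were in 5.04% of the promoters above, 4.79% below, 5.47% of the promoters of all tested genes and 7.81% of all 32851 promoters. Forkhead letters were in 2.62%, 2.74%, 2.70% and 3.65%, the CRE letters TGACGTCA in 2.12%, 3.42%, 2.86% and 1.79%, and the STAT letters TTCCNNGAA in 4.13%, 4.22%, 4.62% and 4.81%. The NF-kB motif, whose last 4 letters are the first of the STAT letters, was in 10 of 992 promoters above (1.01%) and 1 of 877 below (0.114%). It was in 0.470% of the promoters of the tested genes and 0.411% of all. The genes above with that match were Anxa4, Cep112, Csf1, Lpar2, Myadm, Nfkb2, Nfkbia and Pglyrp1, so a gene can count with more than 1 promoter. Nfkbia and Nfkb2 encode an inhibitor and a subunit of NF-kB, and Csf1 a growth factor. These genes are named after their values were seen. A match describes letters, not a bound site.

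Rgs9, which speeds the shut-off of G proteins, read 1808, 2198, 3657, 1517 and 2256 in TFR cells, with 121 to 262 in GL7+ TFH and 157 to 382 in Treg cells. All 4 of its tested probes were on the list, and its smallest gap was 1.99. Ctnnd1, encoding p120 catenin of cell junctions, read 788, 1123, 1314, 2294 and 2505 in TFR cells, 47 to 345 in GL7+ TFH and 222 to 743 in Treg cells. Pnkd (smallest gap 2.15) had 2 of 3 tested probes on the list, and Ica1, which binds membranes in vesicle traffic, had both (smallest gap 1.75).

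Smarcd3, a subunit of the SWI/SNF chromatin remodelling complex, read 477, 374, 687, 272 and 340 in TFR cells. It was at 28 to 65 and above background on 2 of 5 GL7+ TFH arrays, and it was detected on no Treg array, which made TFR cells at least 6.97-fold higher than Treg cells. Cc2d2a and B9d1 encode components of the ciliary transition zone. For Cc2d2a the TFR values were 412, 698, 706, 209 and 690, the GL7+ TFH values were 98, 105, 139, 20 and 20, and no Treg array was above background, a difference of at least 9.97-fold to Treg cells. B9d1 was 1.74 ± 0.19 higher than in GL7+ TFH and 2.75 ± 0.19 higher than in Treg cells. Among matrix genes, Matn2 (matrilin) and Chadl were 3.14 ± 0.58 and 2.52 ± 0.16 higher than in GL7+ TFH cells and 2.53 ± 0.58 and 3.43 ± 0.16 higher than in Treg cells.

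The remaining genes among the 20 with the widest gaps were D430019H16Rik, Tmem205, Serp2, D830030K20Rik and Tff1. D430019H16Rik, which has no established role, had a smallest gap of 2.28 and read 1018, 1510, 2358, 1928 and 3125 in TFR cells, with 140 to 398 in GL7+ TFH and 106 to 166 in Treg cells. Tmem205 encodes a membrane protein and Serp2 a protein of the endoplasmic reticulum, and their smallest gaps were 1.75 and 1.67. For the probe named Tff1, a trefoil factor, the array design gives chr5:143285582-143285641 (mm9), while RefSeq places the gene on chromosome 17. Which transcript that probe measures is therefore not settled. For each of the other genes among these 20 the array position was on the chromosome of the named gene.

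Genes of effector Treg cells were called higher in TFR cells more often than lower. Of 23 tested genes of this list, 13 were called higher than in GL7+ TFH cells, 12 higher than in Treg cells and none lower than in either. Among all tested probes 3.76% were called higher than in GL7+ TFH and 8.11% higher than in Treg cells. Ebi3, Klrg1, Areg, Ccr8, Tnfrsf9 and Il1r2 were called against both, where all tested probes gave 1.73%. On every slide 9 genes were above, where all eligible probes gave 6.74%. The median differences of the list were 1.79 to GL7+ TFH and 1.31 to Treg cells, beside -0.02 and -0.07 for all tested probes.

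Ebi3, a chain of IL-35 and IL-27, read 24561, 24593, 26029, 13639 and 22091 in TFR cells, 2446 to 6523 in GL7+ TFH and 4693 to 9802 in Treg cells. Areg, the repair factor amphiregulin, read 218, 394, 255, 175 and 513 in TFR cells, 70 to 125 in GL7+ TFH and 20 to 85 in Treg cells, 3 of whose arrays were below background. Tnfrsf9, the costimulatory receptor 4-1BB, read 20741, 26384, 28385, 27280 and 36936 in TFR cells, 3290 to 6181 in GL7+ TFH and 6519 to 14969 in Treg cells. None of these genes overlapped between TFR cells and the others. Klrg1, an inhibitory receptor of terminally differentiated lymphocytes, read 4710, 6739, 6271, 3362 and 9720 in TFR, 2532, 2071, 1257, 3028 and 2491 in Treg and 47 to 110 in GL7+ TFH cells. Its difference to GL7+ TFH cells was 6.42 ± 0.32 and that to Treg cells 1.41 ± 0.32 (limma adjusted p = 2.01e-06 and 0.005277).

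Tnfrsf4 (OX40) and Tnfrsf1b (TNF receptor 2) were above on every slide and were called against GL7+ TFH cells, at 1.79 ± 0.10 and 2.96 ± 0.27. Their differences to Treg cells were 0.87 ± 0.10 and 0.86 ± 0.27, under the size of 1 required for a call. The converse held for Batf and Rora, transcription factors of activated T cells, which were called against Treg cells at 1.75 ± 0.10 and 1.18 ± 0.15 and differed by 0.37 ± 0.10 and 0.92 ± 0.15 from GL7+ TFH cells. Il1r2, the decoy receptor for IL-1, was called against both, at 1.25 ± 0.39 and 4.31 ± 0.39, but was not on the list: on slide 1 TFR cells read 23509 and GL7+ TFH cells 27905. The call against both was lost under 21 of 32 other settings. Il10 read 1671, 2305, 4382, 463 and 1345 in TFR cells and 1212, 503, 194, 4527 and 3338 in Treg cells. The order of these fractions turned between pLN and PP, and neither difference of Il10 passed the test.

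**Figure D4:**
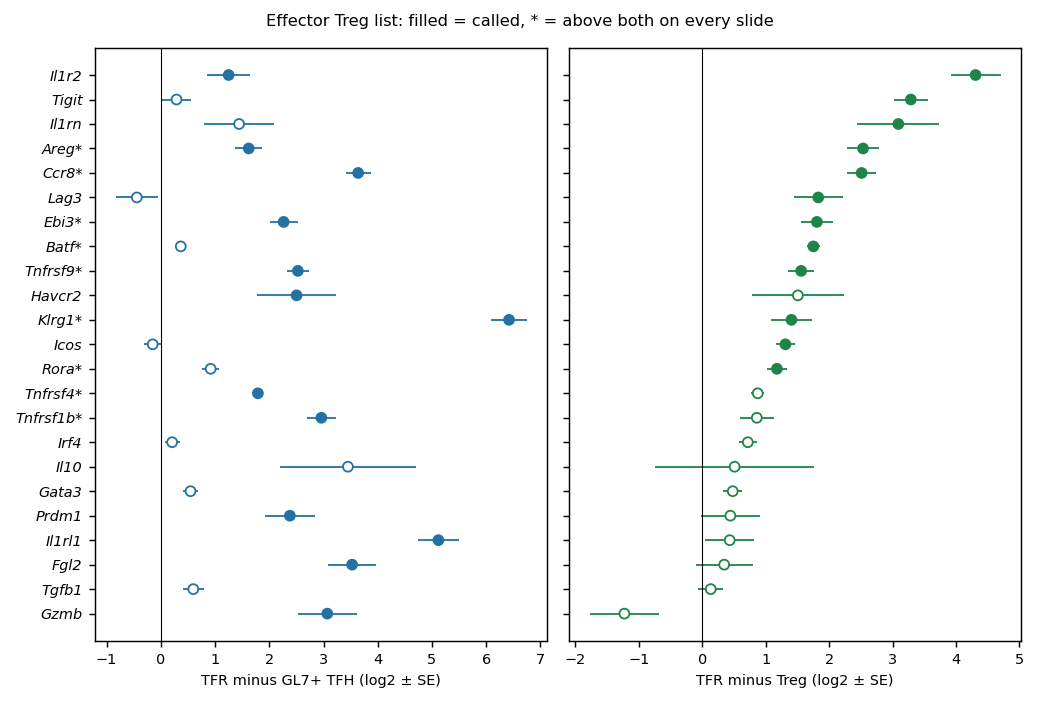
Differences of TFR from GL7+ TFH cells (left) and from Treg cells (right) for the 23 tested genes of the effector Treg list (log2, mean ± SE over 5 slides). Filled points were called and asterisks mark the 9 genes above both on every slide; no filled point lies below 0, and Klrg1 reaches 6.42 on the left and Il1r2 4.31 on the right.

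For the genes of regulatory identity, TFR cells stood with Treg cells. Of 15 tested, 10 were called higher than in GL7+ TFH cells, while against Treg cells 2 were higher and 2 lower. Among all tested probes these shares were 3.76%, 8.11% and 4.0%. Ikzf2, the transcription factor Helios, was above on every slide with both of its probes. The probe that was called against both read 9676, 15646, 22392, 12706 and 23894 in TFR, 5878 to 7525 in GL7+ TFH and 5202 to 9724 in Treg cells, with differences of 1.27 ± 0.18 and 1.15 ± 0.18. Tnfrsf18 (GITR) was above on every slide too, but its smallest gap was 0.08 and it left the list under scaling to the 75th percentile. Il2ra, the IL-2 receptor chain CD25, and Gpr83, an orphan receptor of Treg cells, were called lower in TFR than in Treg cells, at -1.40 ± 0.48 and -2.24 ± 0.42. Il2ra read 17697, 14256, 18067, 1191 and 3268 in TFR cells and 28054, 20081, 17418, 13579 and 17257 in Treg cells. TFR cells were thus far lower on both PP slides and higher on slide 3, and the TFR minus Treg difference was lower in PP than in pLN by a log2 value of -2.59 (limma adjusted p = 0.007752).

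Of 14 follicular transcription factors 10 were called higher than in Treg cells and 5 lower than in GL7+ TFH cells. Among all tested probes 8.11% and 2.56% were called in these ways. The 5 lower ones were Bcl6, Ascl2 (which drives Cxcr5 expression), Tox2, Pou2af1 and Vdr. All of them were among the 10, so that 5 of the 14 lay between the comparators. Of 20 follicular surface receptors 8 were called higher than in Treg and 6 lower than in GL7+ TFH cells, among them Cxcr5, Cd40lg (CD40 ligand) and Il1r1, and only Cxcr5 and Il1r1 were called against both in this way. Il6ra, the receptor for IL-6, and P2rx7, a channel gated by extracellular ATP, had probes below on every slide, where all eligible probes gave 7.18%. Il6ra read 24809, 19924, 19138, 9180 and 8661 in TFR cells, 41107, 30053, 33253, 15999 and 22293 in GL7+ TFH and 32360, 39312, 33280, 21186 and 25984 in Treg cells. Its differences of -0.86 ± 0.15 and -0.99 ± 0.15 were under the size of a call. For P2rx7, 2 of 3 probes were on the list, at -1.30 ± 0.12 and -0.42 ± 0.12 for the probe with the widest gap. The P2rx7 probe with the highest mean intensity was not below both: on slide 5 it read 37371 in TFR and 26967 in Treg cells.

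Of 23 cytokine and secreted factor genes, 5 were called higher and 4 lower than in GL7+ TFH cells, and 12 were called higher than in Treg cells. Among all tested probes these shares were 3.76%, 2.56% and 8.11%. The 4 lower ones were the helper cytokines Il21, Il4 and Il2 and the Wnt and BMP antagonist Sostdc1. Il21 and Il4 were also called higher than in Treg cells, at 5.05 ± 0.51 and 3.66 ± 0.49. Il4 read 2697, 4169, 3715, 20574 and 27193 in TFR and 37251 to 41849 in GL7+ TFH cells. Il21 read 429, 373, 914, 4759 and 3489 in TFR and 15019 to 17879 in GL7+ TFH cells. The TFR values of both were thus higher in PP than in pLN. Penk, Nrn1, Areg and Ebi3 were called against both. Xcl1, which attracts dendritic cells, was on the list above with a smallest gap of 0.01. It read 1567, 2636, 3276, 453 and 1126 in TFR and 429, 972, 3197, 450 and 1015 in GL7+ TFH cells, so that these fractions were close on slides 3 to 5. With the GL7- TFH cells of PP in place of the GL7+ cells, the gap was -1.68.

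Genes of naive cells and of exit from lymphoid tissue were called lower in TFR than in Treg cells for 14 of 17 genes, with a list median of -1.80. Among all tested probes this share was 4.0%. Against GL7+ TFH cells 5 were called higher, among them Ccr7 and S1pr1, and Tcf7 was called lower. All tested probes gave 3.76% and 2.56%. Klf3 and Foxp1, transcription factors of quiescent lymphocytes, were below on every slide with smallest gaps of 0.04 and 0.14. The Foxp1 probe with the highest mean intensity was not below both: on slide 4 it read 5442 in TFR and 5336 in GL7+ TFH cells. Klf3 read 4039, 4405, 2502, 4223 and 8410 in TFR cells against 4349 to 9514 in GL7+ TFH and 8827 to 16882 in Treg cells, and its -0.75 ± 0.21 to GL7+ TFH cells was no call.

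Among 16 chemokine receptors Ccr8 and Ccr6 were called against both, where all tested probes gave 1.73%. Ccr6, the receptor for CCL20, read 21209, 22846, 26945, 7472 and 8320 in TFR, 1879 to 3107 in GL7+ TFH and 6808, 4369, 4499, 9914 and 7236 in Treg cells, and on slide 4 the Treg array was the higher one. In the PP slides alone its difference to Treg cells was -0.10, and the call against both was lost under 11 of 32 other settings. Of 9 IL-1 family receptor genes, Il1r2 and Il18rap (a chain of the IL-18 receptor) were called against both. For Il18rap the TFR values were 674, 571, 448, 73 and 161 and the Treg values 150, 107, 35, 140 and 79, again with the Treg array higher on slide 4, and its call was lost under 17 of 31 settings. Of 13 genes of the IL-2 receptor and its response, 3 were called higher than in GL7+ TFH cells (Il2ra, Cish and Socs2). Against Treg cells 4 were called lower (Il2ra, Socs2, Socs3 and Bcl2). Among all tested probes these shares were 3.76% and 4.0%.

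Itgav and Itgb1, chains of integrins for matrix ligands, were above on every slide among 11 integrin genes, where all eligible probes gave 6.74%. Itgav read 187, 230, 246, 216 and 359 in TFR cells, 87 to 143 in GL7+ TFH and 68 to 161 in Treg cells, at 1.07 ± 0.15 and 1.27 ± 0.15. Itgb8, whose product pairs with the chain of Itgav to activate TGF-beta, was called against both, but it was above background on only 2 TFR and 2 GL7+ TFH arrays and on no Treg array, and the call was lost under 17 of 31 settings. Of 13 immediate early and stress genes, Junb and Nr4a2 were above on every slide, a count of 2 to be read beside the 6.74% of all eligible probes. Nr4a2, an orphan nuclear receptor induced by T-cell receptor signals, was called at 1.40 ± 0.33 and 1.63 ± 0.33, and Junb differed by 0.73 ± 0.08 and 0.34 ± 0.08.

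Cell-cycle genes divided TFR from Treg cells and much less from GL7+ TFH cells. All 19 mitosis genes were called higher than in Treg cells (list median 2.67), and none was called in either direction against GL7+ TFH cells (list median 0.62). For DNA replication these were 16 and 1 of 23. Among all tested probes 8.11% were called higher than in Treg and 3.76% higher than in GL7+ TFH cells. Of the replication genes 10 had 1 or more probes above both on every slide, where all eligible probes gave 6.74%. Among them were Mcm3, Mcm6, Tyms, Gins1, Gins2, Cdc45, E2f7, Rad51b and Exo1. The E2f7 probe with the highest mean intensity was not above both: on slide 1 it read 266 in TFR and 284 in Treg cells. The mitosis genes Cdk1 and Kif20a were also above both on every slide. Mcm6, of the replicative helicase, read 90169, 84396, 89498, 63913 and 45494 in TFR cells and 83946, 67954, 59354, 51987 and 41713 in GL7+ TFH cells, a difference of 0.29 ± 0.10 that was no call. Mcm6 left the list under scaling to the 75th percentile. Rad51b, which acts in homologous recombination, was called against both. Its values were 2221, 3014, 3650, 921 and 1524 in TFR, 1092, 830, 1009, 262 and 346 in GL7+ TFH and 179 to 226 in Treg cells, and its smallest gap was 1.02. With GL7- TFH cells of PP in place of the GL7+ cells, genes that left the list included Mcm3, Gins2, Cdc45 and Cdk1.

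The widest gap below belonged to Slc16a5, a member of the monocarboxylate transporter family (probe at chr11:115335616-115335675, mm9). It read 288, 283, 321, 211 and 233 in TFR cells, 1832, 3643, 2130, 1861 and 3399 in GL7+ TFH cells and 1526, 2303, 2759, 1398 and 1368 in Treg cells. TFR values did not overlap with the others, both tested probes were on the list, and the smallest gap was 2.41. Its differences were -3.22 ± 0.21 and -2.76 ± 0.21 (limma adjusted p = 5.86e-06 and 8.41e-06).

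Ifi208, of the interferon-inducible p200 family, read 111, 143, 160, 43 and 76 in TFR, 417, 665, 732, 355 and 499 in GL7+ TFH and 750, 811, 707, 448 and 702 in Treg cells. Of its 4 tested probes 3 were on the list. This family holds closely related neighbouring genes, so cross-hybridisation leaves the identity of the measured copy uncertain. St8sia1, the synthase of ganglioside GD3, read 1747, 1764, 3185, 2388 and 2142 in TFR cells, 7932 to 10824 in GL7+ TFH and 6746 to 8759 in Treg cells. Eya2, a phosphatase and transcriptional coactivator, read 598, 649, 763, 401 and 659 in TFR cells, 1734 to 3684 in GL7+ TFH and 1566 to 2329 in Treg cells. Both were below the others without overlap, the first with a smallest gap of 1.46.

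Kcnh3, a voltage-gated potassium channel, read 343, 250, 281, 316 and 237 in TFR cells against 769 to 1642 in GL7+ TFH and 639 to 1731 in Treg cells. Kcnmb4, a regulatory subunit of calcium-activated potassium channels, differed by -1.64 ± 0.19 and -1.70 ± 0.19. Ramp1, which makes the receptor for the neuropeptide CGRP, differed by -1.65 ± 0.24 and -2.08 ± 0.24. Pde2a, which breaks down cyclic nucleotides, read 6523, 5130, 5820, 12627 and 9448 in TFR cells, 15362 to 51019 in GL7+ TFH and 18409 to 30872 in Treg cells. Tgfbr3, the TGF-beta co-receptor betaglycan, read 665, 714, 1068, 335 and 664 in TFR cells, 2662, 4091, 4531, 3535 and 8427 in GL7+ TFH and 1759, 1573, 1901, 979 and 1939 in Treg cells. Treg cells were the nearer comparator for Tgfbr3 on all 5 slides, at -1.29 ± 0.24 against -2.73 ± 0.24 for GL7+ TFH cells.

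Eomes, a transcription factor of effector and cytotoxic lymphocytes, read 220, 151, 187, 58 and 77 in TFR cells. GL7+ TFH cells read 425, 1009, 1542, 128 and 214 and Treg cells 528, 567, 369, 250 and 441, so TFR cells were the lowest on each slide, at -1.87 ± 0.40 and -1.76 ± 0.40 (limma adjusted p = 0.008824 and 0.005118). Of the 2 tested Eomes probes, only this 1 was on the list. Without slide 2 the call was lost. Eomes is itself a marker of CD8 T and NK cells. The summed intensity of the other 4 such markers was 2741 to 6136 in TFR, 3256 to 6426 in GL7+ TFH and 2336 to 6890 in Treg cells. On the 3 pLN slides this sum was also lowest in TFR cells, at 4370, 2741 and 4051 against 6165, 3256 and 6426 in GL7+ TFH and 6890, 5506 and 5965 in Treg cells. On the PP slides TFR cells read 6136 and 4498, above the 2893 and 2336 of Treg cells. The markers were divided there. Klrb1c read 4684 and 3644 in TFR and 449 and 203 in Treg cells. Lower in TFR cells were Cd8a, at 318 and 178 against 572 and 707, and Cd8b1, at 1114 and 656 against 1851 and 1406. Cd8a, 1 of these markers, was called lower than in Treg cells at -1.26 ± 0.26, and the part of such cells in the Eomes values was not tested. Of 11 cytotoxic genes Fasl was below and Klrg1 above, 1 gene each way, beside 7.18% and 6.74% of all eligible probes. Tbx21, the type 1 master regulator T-bet, differed by -0.27 ± 0.53 and 0.49 ± 0.53 and passed neither test.

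The others of the 15 leading genes below were Hid1, Rflnb, Bicdl1, Raver2 and C030034I22Rik. Rflnb encodes an actin-regulating partner of filamin, Hid1 and Bicdl1 act in vesicle traffic and Raver2 encodes an RNA-binding protein. Smallest gaps were 1.23 for Hid1, 1.21 for Rflnb, 0.89 for Bicdl1, 0.89 for Raver2 and 0.88 for C030034I22Rik. Raver2 was above background on 1 TFR array only. All of these were called lower against both apart from C030034I22Rik, whose -1.0 ± 0.10 to GL7+ TFH cells fell just short in size.

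Markers of cells other than T cells appeared among the genes that stood apart. Epcam, an adhesion molecule of epithelium, was above on every slide, with 789, 1198, 1318, 842 and 1396 in TFR cells, 142 to 270 in GL7+ TFH and 243 to 630 in Treg cells, and was called at 2.42 ± 0.26 and 1.67 ± 0.26. The other 7 epithelial markers summed to 729, 628, 757, 12861 and 913 in TFR, 352, 354, 303, 12717 and 1098 in GL7+ TFH and 326, 364, 204, 36659 and 903 in Treg cells. Of these 7, at most 2 were detected on any pLN array. On slide 4, where their sum was highest in each fraction, Epcam in TFR cells was within the range of the other slides. In GL7+ TFH and Treg cells Epcam was highest on that slide, at 270 and 630. Among these 7 markers, Krt18 read 582, 500, 628, 1480 and 698 in TFR cells. It read 204, 234, 183, 894 and 387 in GL7+ TFH and 174, 150, 79, 2148 and 183 in Treg cells. Krt18 was called higher in TFR than in Treg cells, at 1.57 ± 0.39, but not against GL7+ TFH cells. The part of epithelial cells in the Epcam values was not tested. Blk, a Src-family kinase of B cells, read 138, 65, 69, 1612 and 204 in TFR cells, and its call against both was lost under 17 of 31 settings. The other 12 B-cell markers summed to 7262 to 172515 in TFR, 6558 to 43014 in GL7+ TFH and 9204 to 114210 in Treg cells, all 3 maxima being on slide 4. Their part in the Blk result was not tested. Pecam1, an adhesion molecule of endothelium and of leukocytes, was below on every slide at -1.01 ± 0.12 and -0.95 ± 0.12, while the other 4 stromal and endothelial markers summed to 238 to 549, 129 to 475 and 103 to 430.

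The extent to which TFR cells stood apart was compared between the tissues. Among probes eligible on all 5 slides, 2782 (15.8%) were above both on the 3 pLN slides and 2593 (14.7%) on the 2 PP slides. The 1187 probes in common made up 42.7% of the former and 45.8% of the latter. For the probes below these were 2596 (16.2%) and 3539 (22.1%), with the 1149 in common making up 44.3% and 32.5%. Fewer slides let more probes pass, so the pLN and PP counts are not on an equal footing. TFR cells were above both in pLN and below both in PP for 95 probes, and the reverse for 57.

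A fit with cell type by tissue terms called 191 probes (0.858%) for which both TFR differences were larger in PP than in pLN, and 71 (0.319%) for which both were smaller. Tissue and the immunisation in the labels go together, as do tissue and slide, and cannot be told apart. The 2 PP slides carried much of this count, which over both directions was 262 with all slides, 75 without slide 4 and 47 without slide 5. Ascl2 read 1351, 864, 2338, 17635 and 9858 in TFR cells and 59656, 24717, 43331, 27675 and 16893 in GL7+ TFH cells. Its mean difference to GL7+ TFH cells was thus -4.84 in pLN and -0.71 in PP, while Treg cells stayed at 169 to 495. The difference between tissues was 4.12 ± 0.35 against GL7+ TFH and 4.01 ± 0.35 against Treg cells (limma adjusted p = 0.001997 and 0.002168). Sostdc1 behaved alike, with 1203, 1021, 1181, 43577 and 31136 in TFR, 42446 to 91914 in GL7+ TFH and 50 to 338 in Treg cells.

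Il13ra1, a chain of the IL-13 receptor, was higher in TFR than in GL7+ TFH cells on both PP slides and lower on the pLN slides. It read 27, 55, 113, 621 and 463 in TFR cells, the first 2 values below background, 195, 87, 195, 149 and 86 in GL7+ TFH cells and was not above background in any Treg array. Fabp7, a fatty-acid binding protein, and Gm3367 reached 443 and 929 in TFR cells of PP and were at most 87 and 125 in those of pLN. Bcl6 belonged to the same 191 probes, with TFR values of 8794, 10253, 16807, 53774 and 46063 beside 42692 to 72183 in GL7+ TFH cells, as did the sort gene Pdcd1.

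In the opposite direction, Cxcr3, a chemokine receptor of type 1 responses, read 24669, 34295, 38766, 2054 and 2751 in TFR cells. GL7+ TFH cells read 11894, 21094, 21459, 8191 and 8794 and Treg cells 10302, 7602, 10115, 13149 and 9490. TFR cells were therefore above both on the 3 pLN slides and below both on the 2 PP slides, and the difference between tissues was -2.71 ± 0.38 against GL7+ TFH and -4.02 ± 0.38 against Treg cells (limma adjusted p = 0.01019 and 0.002534). Galnt14, which starts O-linked glycosylation, read 605, 826 and 1378 in TFR cells of pLN and 24 and 34 in those of PP, and its call against both over all 5 slides was lost under 14 of 31 other settings. Dnah7a, a dynein heavy chain, read 354, 676, 1012, 20 and 40 and was not above background in any GL7+ TFH array nor in PP TFR replicate 1. Gsta4, a glutathione transferase, and Peli2, a ubiquitin ligase, differed from Treg cells by -0.07 and 0.39 in pLN and by -3.84 and -3.21 in PP.

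**Figure D5:**
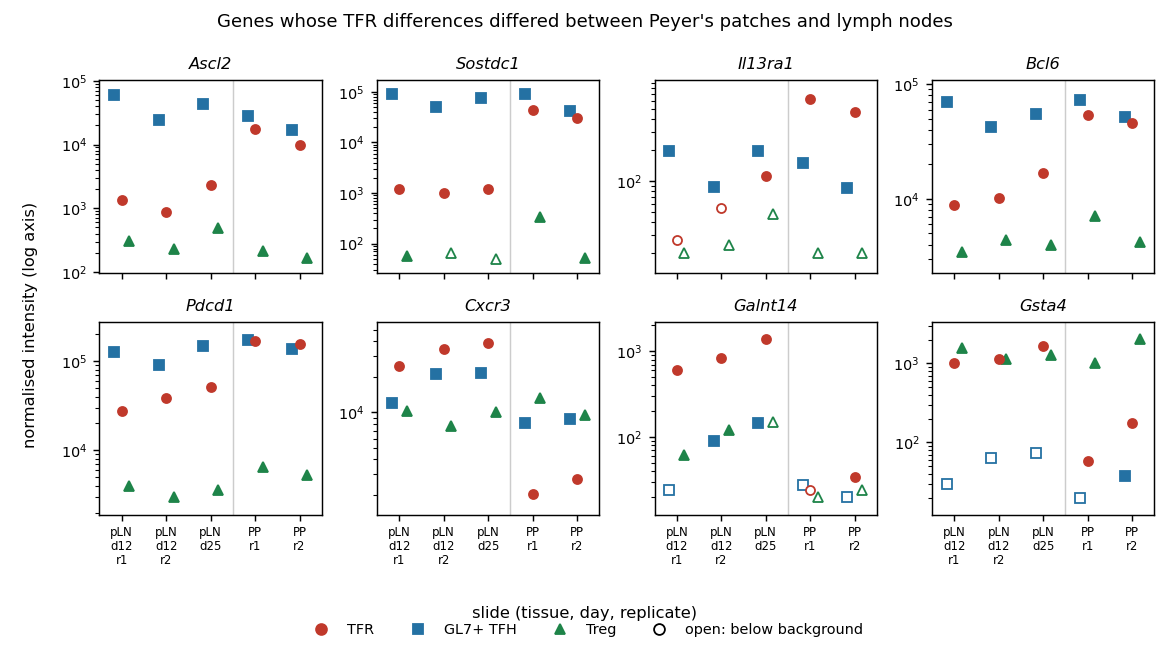
Normalised intensity (log axis) on the 5 slides of 8 genes whose TFR differences differed between PP and pLN; symbols as before, with a grey line between the pLN and PP slides. In PP the TFR circles of Ascl2, Sostdc1, Bcl6 and Pdcd1 move up to the GL7+ TFH squares, while those of Cxcr3, which span 24669 to 38766 in pLN, drop to 2054 and 2751 and lie under both comparators.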

How the data were processed

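RNA of sorted mouse CD4 T-cell fractions was measured on 20 single-colour arrays, of which 15 entered the comparisons. The deposited scanner files (Agilent Feature Extraction 10.7.3.1, per the submitters' processing notes) give a background-subtracted and detrended intensity for each of 157716 features, with quality marks of 0 or 1. The authors' own table holds linear intensities per probe that they averaged over features, then brought to equal quantiles, with the 75th percentile set to 1500 and a floor of 20. Their steps were repeated here on the scanner values: features marked as outliers, beyond 1.42 interquartile ranges or with a pixel coefficient of variation above 0.5 were left out, and the geometric mean of up to 4 features gave 39429 probes. Per array, the median distance to the authors' own values was 0.0347 to 0.0362 (log2). A probe counted as detected with 3 or more of 4 features marked well above background. Tests covered 22264 probes. Each was detected throughout 1 or more of the groups that have 2 arrays, naive and GL7- TFH groups included. For gaps and bounds, values below background were raised to the lowest detected intensity of their array. The number of arrays, not a read depth, limits the precision.

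Differences were fitted with limma 3.58.1 (R 4.3.3) on log2 intensities, with slide as a fixed block and 3 cell types (8 residual degrees of freedom), and with cell type by tissue terms (6), and adjusted by Benjamini-Hochberg over all tested probes. The scripts were tested on simulated data. Positions are those of the array design (mm9). Symbols were matched by accession to RefSeq for 27591 probes. Named genes were the 20 widest gaps above and 15 below, members of gene lists on either list or called against both, the sort genes, the probes next to the threshold and 5 genes in each direction of the tissue difference. Where a gene has several probes, its named probe is the one with the widest gap. In gene lists, calls and medians use the probe with the highest mean intensity. Counts above or below on every slide take any probe of the gene, while the 6.74% and 7.18% beside them are shares of probes. The members and lists were chosen with earlier results of these data known. Alternatives were the methods' Tukey test, other scalings and background correction, the authors' values, other detection filters, no block or a random block, each array or slide left out, and each tissue alone. Naive T cells entered only as the fourth array, and the other experiments of the study were not analysed here. Values of some genes are not reported here.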

Additional observations from a re-analysis of the deposited data

Results flagged for a closer look

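The TFR differences that were not the same in PP and pLN were tested as cell type by tissue terms in limma, with values given as PP minus pLN on the log2 scale, first for TFR minus GL7+ TFH cells and then for TFR minus Treg cells. Both were larger in PP for 191 probes and smaller for 71. The follicular regulators Ascl2 (4.12 and 4.01) and Bcl6 (1.96 and 1.64) were among the larger ones, as was the sort gene Pdcd1 (1.71 and 1.35). The secreted antagonist Sostdc1 differed by 5.2 and 3.79, the receptor chain Il13ra1 by 3.67 and 3.78, the fatty-acid binding protein Fabp7 by 3.98 and 3.65, and Gm3367 by 3.95 and 4.01. For Gm3367, Il13ra1 and Fabp7 no Treg array was above background, nor were the TFR arrays of pLN d12, so these values rest on intensities near the floor and do not measure a size.

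In the other direction the chemokine receptor Cxcr3 differed by -2.71 and -4.02 and the glycosyltransferase Galnt14 by -3.44 and -2.71. Dnah7a differed by -3.91 and -3.56, Peli2 by -2.86 and -3.60 and Gsta4 by -2.70 and -3.76. No GL7+ TFH array was above background for Dnah7a or Peli2, nor was TFR of PP replicate 1, and their values, likewise near the floor, do not measure a size either. Markers of B cells and epithelium were highest on slide 4, which is 1 of the 2 PP slides, and their part in these differences was not tested.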

How the results depend on the processing

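The counts called in TFR cells against GL7+ TFH, against Treg, above both and below both (1409, 2696, 385 and 64) became 637, 1631, 170 and 20 with the methods' Tukey test after Benjamini-Hochberg adjustment, and 914, 1742, 203 and 30 with normexp background correction. With probes detected on all 15 arrays alone the first 3 were 669, 1317 and 120, and with the pLN slides alone 102 probes were below both. Without the slide block 390 probes were above and 61 below both, with slide as a random block 402 and 70. Leaving out 1 array gave 329 to 424 and 47 to 80, and leaving out 1 slide 327 to 411 and 43 to 81. The tissue difference was less stable: its 262 probes (191 larger, 71 smaller) became 61 (51 and 10) without the block, 86 (63 and 23) without the detection filter, and 47 to 173 (40 to 131 and 7 to 50) with 1 slide left out. On the pLN slides alone 2814 probes were above and 2605 below, on the PP slides alone 3088 and 4360. Gaps of at least 0.5 left 240 and 57, and of at least 1 left 73 and 10. Scaling to the 75th percentile gave 1081 above and 1170 below, of which 1005 and 934 were on the original lists. With GL7- TFH cells of PP in place of GL7+ cells the smallest gaps of Xcl1, Foxp1 and Cdc45 turned to -1.68, -0.24 and -0.15. On the PP slides alone the TFR minus Treg difference turned to -0.10 for Ccr6, -2.23 for Cxcr3 and -2.30 for Il10. Causes were not tested. Of 50 named calls against both, 28 were kept under all alternatives that could be run, and 22 were lost under at least 1, Nrn1 under the methods' Tukey test. The fit itself pairs the arrays of a slide through the block, and the labels give no replicate numbers for another pairing. Probes near background and the 2 PP slides limit what can be said.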

Other observations

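The fourth array of each slide held naive T cells (pLN) or GL7- TFH cells (PP) and took no part in the rule. Values are given in the order of slides 1 to 5, the last 2 being GL7- TFH cells. Several genes below in TFR cells were high in naive T cells. Slc16a5 read 7255, 10482, 9739, 1654 and 2611 there, Ifi208 2722, 2860, 2975, 432 and 683, and the quiescence factor Foxp1 1188, 1184, 1481, 406 and 360. St8sia1, the GD3 synthase, read 18581, 13837, 17271, 10422 and 8424. The TFR values of these genes were lower on all 5 slides, apart from Foxp1, for which TFR cells read 480 on slide 4.

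Of the genes above, Vegfc was not above background on any of these 5 arrays. Penk read 155, 121 and 54 in naive T cells and 15585 and 21367 in GL7- TFH cells, which were closer to the TFR values of 33683 and 59420 than the GL7+ TFH values of 8069 and 9356. Xcl1 read 1377 and 3614 in GL7- TFH cells, above the 453 and 1126 of the TFR arrays. Axl read 1222 and 1274 and Ccr8 195 and 165 in GL7- TFH cells, far under the TFR arrays of the same slides. With 2 arrays per fraction in PP these values are a description and were not tested.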
